A study of Homo sapiens with 4 samples.

Results

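The 42 antioxidant, glutathione and thioredoxin genes described here were chosen by name, with earlier results of these data known, from the 58243 genes counted in each library. They cover the transcription factor NRF2 (gene NFE2L2) and its inhibitor KEAP1, the thioredoxin system, glutathione synthesis, the peroxiredoxins, superoxide dismutases, catalase and glutathione peroxidases, glutaredoxins, glutathione transferases, methionine sulfoxide reductases, enzymes that supply NADPH, and the nitrosoglutathione reductase ADH5. All 42 had a row in every library, and 40 had enough reads to be tested. GPX8, a peroxidase of the endoplasmic reticulum, had 1, 0, 0 and 1 counts in control a, control b, SNP a and SNP b, and MSRB3, a methionine sulfoxide reductase, had 2, 2, 6 and 11 counts, so neither was tested.

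RNA came from SH-SY5Y, an established line grown from a human neuroblastoma, a tumour of sympathetic origin. The control group was 2 libraries (a and b) of cells given no agent, and the other group was 2 libraries (a and b) of cells exposed for 8 h to sodium nitroprusside, abbreviated SNP, a donor of nitric oxide. The protocol text describes the cells as differentiated with retinoic acid and left to settle for 24 h before treatment; it mentions several doses without saying which was sequenced, and it calls the RNA of the SNP group oxidized without describing a step that selected oxidized RNA. The labels do not say that libraries a and b came from separate cultures, so the p-values below measure the spread between these libraries, which may be technical.

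Thiol-based defence runs along a pair of parallel chains that both draw electrons from NADPH. In the first chain, thioredoxin reductase reduces thioredoxin, which in turn reduces peroxiredoxins and other proteins. In the second, glutathione reductase keeps glutathione reduced for glutathione peroxidases, glutaredoxins and glutathione transferases. Many genes of both chains are textbook targets of NRF2, which KEAP1 holds for degradation in unstressed cells and which binds antioxidant response elements together with small MAF proteins.

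Summed gene counts were 6538701 and 5613144 in control a and b and 8056550 and 7648309 in SNP a and b. Both SNP libraries were thus deeper than both control libraries. A floor of 3 counts corresponded to 0.372 to 0.534 CPM (counts scaled to library size, the unit of all levels below unless TPM is named). Mitochondrial transcripts took 4.99% and 4.43% of control counts (a and b) and 2.99% and 2.72% of SNP counts; the part of this difference in the results below was not tested. Markers of noradrenergic neuroblastoma summed to 3455 and 3548 CPM in control and to 2791 and 2930 CPM in SNP; members went both ways, DBH falling from 625 and 722 CPM to 220 and 298 CPM while HAND2 (0.41), CHGA (0.91) and CHGB (0.97) rose on the log2 scale. Of the 13 markers, 12 were counted, while tyrosine hydroxylase (TH), a defining one, was at 0 in every library. Schwann or glial markers summed to 1.01 to 2.84 CPM, with SOX10 at 0, and blood markers to 0.629 to 1.30 CPM, with 4 of 5 at 0. The 9 mesenchymal markers summed to 104 and 89.8 CPM in control and to 113 and 106 CPM in SNP. Both SNP sums lay above both control sums, an order carried by COL3A1, which rose (40.1 and 34.4 CPM, then 60.1 and 59.4). COL1A2 fell, and without COL3A1 the remaining markers together were lower in each SNP library than in either control library. The part of these markers in the results below was not tested.

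At the RefSeq start sites (assembly GRCh38.p14), the promoters of 33 of the 42 genes were available, each running from 250 bases before to 50 bases after the start. Only the first promoter entry of each gene was used, so cores at other starts of a gene are not covered. Which start these cells used was not tested. The core of the antioxidant response element, TGACNNNGC, was searched on both strands. It was found in 7 of the 33 promoters (21.2%), against 1548 of 10416 promoters of the genes tested (14.9%) and 3702 of all 27305 promoters (13.6%). Among the 7 were 3 genes whose RNA changed, and the 250 bases before their starts are shown because TXNRD1 and GSTP1 had the smallest adjusted p of the risers and of the fallers and PGD is the other riser with a core. Capitals mark the cores, the strand is that of the gene (plus in all 3), and the windows are chr12:104215529-104215778 for TXNRD1, chr1:10398814-10399063 for PGD and chr11:67583562-67583811 for GSTP1.
TXNRD1: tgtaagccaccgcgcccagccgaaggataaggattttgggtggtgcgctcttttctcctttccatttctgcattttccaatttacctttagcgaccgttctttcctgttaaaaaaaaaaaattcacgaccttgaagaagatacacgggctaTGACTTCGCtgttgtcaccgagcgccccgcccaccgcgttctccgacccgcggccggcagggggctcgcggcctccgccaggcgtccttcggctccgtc
PGD: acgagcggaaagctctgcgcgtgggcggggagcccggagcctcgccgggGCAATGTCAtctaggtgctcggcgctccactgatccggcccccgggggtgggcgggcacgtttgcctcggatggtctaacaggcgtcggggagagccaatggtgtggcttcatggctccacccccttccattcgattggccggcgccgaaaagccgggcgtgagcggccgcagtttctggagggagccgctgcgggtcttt
GSTP1: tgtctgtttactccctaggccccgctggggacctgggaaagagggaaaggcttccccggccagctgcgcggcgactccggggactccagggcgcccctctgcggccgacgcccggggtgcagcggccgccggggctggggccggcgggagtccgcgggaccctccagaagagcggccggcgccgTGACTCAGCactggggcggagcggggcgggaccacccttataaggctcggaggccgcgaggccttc
Positions are counted from the start, with the base before it as -1. The TXNRD1 core TGACTTCGC began at -99; a further core, TGACGGAGC on the opposite strand, began at -8 and ran past the start, so it is not capitalised. The PGD core lay on the opposite strand (TGACATTGC) from -201. The GSTP1 core, TGACTCAGC, began at -66, and the same 9 bases stood at -137 in ME1, whose change was not called. The other cores were in GCLM (TGACTAAGC, opposite strand), GSTO1 (TGACTGAGC and TGACACAGC), TXNL1 (TGACTCGGC) and again ME1 (TGACGGTGC, opposite strand), all not called. Cores were thus held by 2 of the 4 genes that rose, by 1 of 6 that fell and had a promoter entry, and by 4 of 21 that were not called. A match of these letters describes the window and is not evidence of binding.

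As a level per length, the authors' deposited TPM, a length-scaled transcript abundance, placed TXNIP, an inhibitor of thioredoxin, first of the 42 with a mean of 197 TPM over the 4 libraries. PRDX5 (185 TPM), PGD (179 TPM), GSTP1 (160 TPM), PRDX6 (147 TPM), PRDX2 (141 TPM) and TXNRD1 (136 TPM) followed, and GSR came next at 93.8 TPM. The lowest of the tested genes were MSRA (11.3 TPM), SLC7A11 (4.97 TPM) and GLRX (2.35 TPM). The ranges over the 4 libraries overlapped in 37 of the 39 neighbouring pairs of this order; MSRA lay above SLC7A11, and SLC7A11 above GLRX, without overlap.

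**Figure D1:**
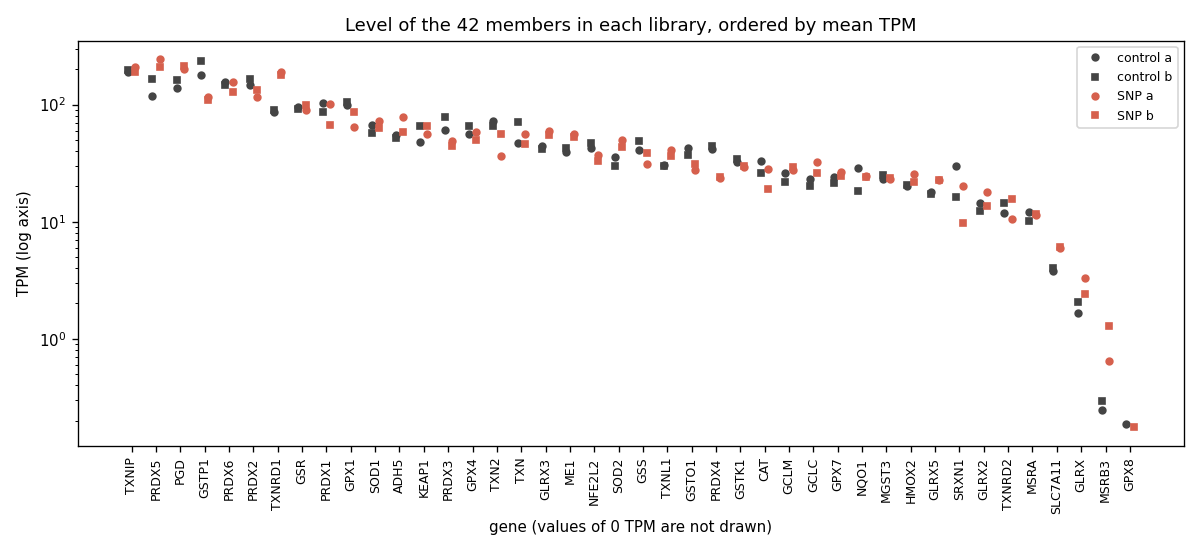
Level of each of the 42 genes in each library, in TPM on a log axis, with genes ordered by their mean; dark points are control and red points SNP, circles replicate a and squares replicate b, and values of 0 are not drawn. TXNIP is highest at a mean of 197 TPM, and MSRB3 and GPX8 at the right are the genes too low to be tested.

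In the comparison of SNP with control, 4 of the 40 tested genes rose and 7 fell (edgeR quasi-likelihood test, adjusted p under 0.05 over all 14759 genes tested), and 29 were not called. TXNRD1, PRDX5, SOD2 and PGD were the 4 that rose, and GSTP1, PRDX4, TXN2, PRDX3, GPX1, NFE2L2 and PRDX2 the 7 that fell. The 11 called were 27.5% of those tested, close to the 26.2% called over all genes; 10.0% rose against 13.6% of all genes, and 17.5% fell against 12.6%. The median log2 fold change was -0.09, against -0.0042 over all genes tested, with a range from -0.98 to 0.94. Both SNP values lay on the same side of both control values for 24 genes (60.0%), 11 higher and 13 lower, against 64% of all genes. Leaving out either control library lowered the count of calls by over 1.5 times. The share called over all genes in those fits is not given here. TXNRD1, PRDX4 and GSTP1 kept their call under all 14 alternative analyses, and for the other 8 the loss of a call is given beside each gene. In bulk RNA, fewer cells of a kind and less RNA per cell cannot be told apart.

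**Figure D2:**
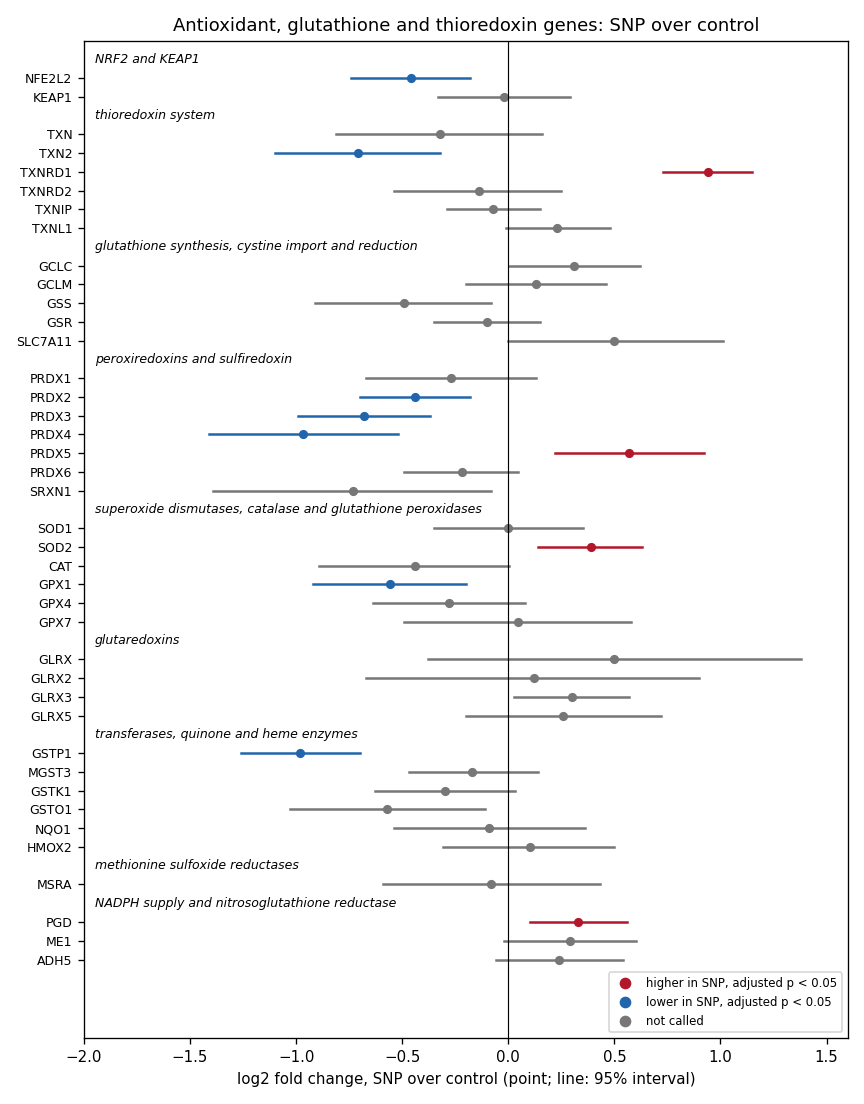
Log2 fold change of SNP over control for the 40 tested genes, grouped by role; points are estimates from edgeR and lines their 95% intervals, red for genes called higher, blue for genes called lower and grey for genes not called. TXNRD1 lies farthest right at 0.94, and GSTP1 (-0.98) and PRDX4 (-0.97) farthest left.

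TXNRD1, the selenium-containing cytosolic thioredoxin reductase that regenerates reduced thioredoxin, nearly doubled and was the gene with the clearest rise. It lies on chromosome 12 from 104215779 to 104350305, plus strand (GENCODE 29, GRCh38, as for all positions). Its level was 124 and 127 CPM in control a and b and 254 and 229 CPM in SNP a and b. The groups were far apart, with close control libraries. Its mean went from 125 ± 2.19 to 241 ± 18.0 CPM (SD, n = 2 each), a log2 fold change of 0.94 (SE 0.10, 95% interval 0.73 to 1.15, edgeR adjusted p = 1.4e-06), and the estimates of the alternatives ran from 0.61 to 1.02.

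TXN2, the thioredoxin of mitochondria (chromosome 22, 36467036 to 36482030, minus strand), fell. Control a and b had 31.8 and 28.1 CPM, and SNP a and b 14.9 and 21.8 CPM, so the groups did not overlap although the SNP libraries differed from each other. The log2 fold change was -0.71 (SE 0.19, edgeR adjusted p = 0.0076). The call was lost without control a (-0.62, edgeR adjusted p = 0.0575) and without SNP a (-0.46, edgeR adjusted p = 0.0746).

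The other 4 genes of the thioredoxin system were not called. TXN, the cytosolic thioredoxin, had 11.6 and 17.2 CPM in control and 12.8 and 9.98 CPM in SNP, with overlapping groups and a 95% interval of -0.81 to 0.16. TXNRD2, the mitochondrial reductase, had an interval of -0.54 to 0.25, and TXNIP one of -0.29 to 0.15. TXNL1, a thioredoxin-like protein bound to the proteasome, was at 74.0 and 71.7 CPM in control and 92.0 and 79.4 CPM in SNP (interval -0.011 to 0.48); it was called without SNP b (0.34, edgeR adjusted p = 0.0336). On the TPM scale, the ratio of TXNRD1 to TXNRD2 was 7.21 and 6.24 in control and 18.1 and 11.5 in SNP, and that of TXNRD1 to GSR was 0.903 and 0.986 against 2.09 and 1.81. Neither ratio overlapped between groups, while TXN over TXN2 and TXNIP over TXN did. Summed over the 6 genes, the level was 415 ± 5.67 CPM in control and 520 ± 34.0 CPM in SNP, an increase carried by TXNRD1.

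**Figure D3:**
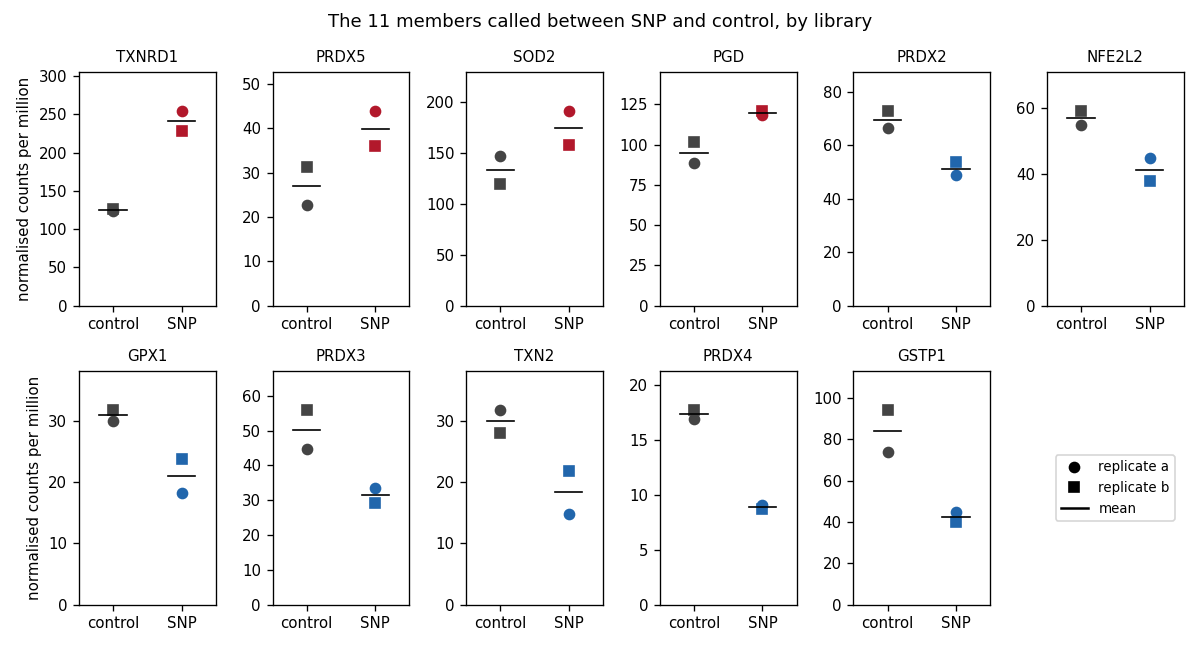
Level in CPM in each library for the 11 called genes, each panel with its own axis from 0; circles are replicate a, squares replicate b and lines group means, with control in black and SNP in red (called higher) or blue (called lower). In every panel the groups do not overlap, and in TXNRD1 the control points, at 124 and 127 CPM, lie almost on each other.

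NFE2L2, which encodes NRF2 (chromosome 2, 177227595 to 177392697, minus strand), fell modestly at the RNA level. Control a and b had 54.8 and 58.9 CPM and SNP a and b 44.7 and 37.9 CPM, with no overlap. The log2 fold change was -0.46 (SE 0.13, edgeR adjusted p = 0.0142). It was not called by the DESeq2 Wald test (adjusted p = 0.0576), without control b (-0.41, edgeR adjusted p = 0.138) or without SNP b (-0.34, edgeR adjusted p = 0.0684). Of its 5979 exon bases, 1054 are shared with AC019080.1 on the same strand, so reads there could belong to either gene. KEAP1, the adaptor that targets NRF2 for degradation, had 39.0 and 52.4 CPM in control and 42.3 and 47.5 CPM in SNP; its groups overlapped and its interval was -0.33 to 0.29. RNA levels do not measure NRF2 protein, which is controlled largely by its stability.

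None of the 5 genes of glutathione synthesis, cystine import and glutathione reduction was called by DESeq2, or by edgeR with all 4 libraries and no offsets. With the base composition correction described below, edgeR called GSS lower (-0.55, edgeR adjusted p = 0.048). Without it, 3 of the 5 genes had an unadjusted edgeR p under 0.05, as had 5548 of all 14759 genes tested. GCLC, the catalytic subunit of the enzyme that makes the first bond of glutathione, was at 42.1 and 35.9 CPM in control and 54.6 and 42.3 CPM in SNP. Its groups stood apart only by the gap between control a and SNP b (95% interval 0.0011 to 0.62, edgeR adjusted p = 0.131), and without SNP b it was called (0.49, edgeR adjusted p = 0.0137). SLC7A11, the cystine importer, had 7.87 and 8.17 CPM in control and 11.6 and 11.2 CPM in SNP (0.50, interval 0.00059 to 1.01, edgeR adjusted p = 0.13). GSS, glutathione synthetase, had the opposite order, with 17.0 and 19.9 CPM in control and 11.96 and 14.1 CPM in SNP (-0.49, interval -0.91 to -0.08, edgeR adjusted p = 0.0739), and was called without SNP b (-0.62, edgeR adjusted p = 0.0428). GCLM, the modifier subunit, overlapped between groups (interval -0.20 to 0.46), and GSR, glutathione reductase, differed little (interval -0.35 to 0.15). The ratio of GCLC to GCLM in TPM was 0.888 and 0.931 in control and 1.17 and 0.888 in SNP.

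Among the peroxiredoxins, thiol peroxidases that reduce hydrogen peroxide and peroxynitrite, PRDX2, PRDX3 and PRDX4 fell and PRDX5 rose. PRDX4, the form of the endoplasmic reticulum (chromosome X, 23664262 to 23686399, plus strand), showed the largest fall of the family. It was at 17.0 and 17.8 CPM in control and at 9.06 and 8.69 CPM in SNP, tight within each group and near a halving between them (-0.97, SE 0.21, edgeR adjusted p = 0.0020).

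PRDX3, of mitochondria (chromosome 10, 119167703 to 119178833, minus strand), had 44.7 and 55.9 CPM in control and 33.6 and 29.2 CPM in SNP (-0.68, SE 0.15, edgeR adjusted p = 0.0020), and lost its call without control b (-0.51, edgeR adjusted p = 0.0684). PRDX2, of the cytosol (chromosome 19, 12796820 to 12801859, minus strand), had 66.5 and 72.8 CPM in control and 49.0 and 53.7 CPM in SNP (-0.44, SE 0.12, edgeR adjusted p = 0.0115), and lost its call without control b (-0.37, edgeR adjusted p = 0.16). In both genes each SNP value lay below each control value.

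PRDX5, found in mitochondria, peroxisomes and cytosol (chromosome 11, 64318088 to 64321811, plus strand), went the other way, with 22.7 and 31.3 CPM in control and 43.8 and 36.1 CPM in SNP. The groups did not overlap, but the gap between control b and SNP b was small beside the spread within each group. The log2 fold change was 0.57 (SE 0.17, edgeR adjusted p = 0.0149); it was not called by DESeq2 (adjusted p = 0.0569), without control a (0.35, edgeR adjusted p = 0.289) or without SNP a (0.43, edgeR adjusted p = 0.0929). In TPM, the ratio of PRDX5 to PRDX3 was 1.94 and 2.14 in control and 4.99 and 4.73 in SNP. That of PRDX5 to PRDX4 was 2.85 and 3.75 in control and 10.3 and 8.85 in SNP. PRDX5 was higher and PRDX3 and PRDX4 lower in both SNP libraries in TPM too, so these ratios could not overlap and add no further separation.

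PRDX1, PRDX6 and SRXN1 were not called with all 4 libraries and no covariate. PRDX1, the other cytosolic typical form, had 33.6 and 27.5 CPM in control and 31.1 and 19.6 CPM in SNP, and PRDX6, which uses glutathione, had 79.9 and 73.2 CPM in control and 73.5 and 57.7 CPM in SNP. In both, SNP a lay between the control values and SNP b below them. Without SNP a both were called lower (-0.65 and -0.41, edgeR adjusted p = 0.0138 and 0.0226). SRXN1, sulfiredoxin, which repairs overoxidised peroxiredoxins, was at 17.3 and 9.23 CPM in control and 10.95 and 5.06 CPM in SNP (-0.73, edgeR adjusted p = 0.09), and it shares 2292 of its 2698 exon bases with AL121758.1 on the same strand. It was called lower without control b (-1.10, edgeR adjusted p = 0.0023) and without SNP a (-1.40, edgeR adjusted p = 0.0030), and, with all 4 libraries, under a replicate block without offsets (-0.74, edgeR adjusted p = 0.0183) and with length and GC offsets (-0.64, edgeR adjusted p = 0.0412). Summed over the 7 genes, the level was 285 ± 4.25 CPM in control and 231 ± 29.1 CPM in SNP.

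SOD2, the manganese superoxide dismutase of mitochondria (chromosome 6, 159669057 to 159745186, minus strand), rose, while SOD1, the copper and zinc enzyme of the cytosol, had the same mean in both groups. SOD2 was at 147 and 120 CPM in control and 191 and 158 CPM in SNP; SNP b stood only a little above control a. Its log2 fold change was 0.39 (SE 0.12, edgeR adjusted p = 0.0181), and the call was lost without control b (0.25, edgeR adjusted p = 0.291) and without SNP a (0.24, edgeR adjusted p = 0.15). SOD1 had 29.2 and 24.3 CPM in control and 29.3 and 24.3 CPM in SNP, with an interval of -0.35 to 0.35. The TPM ratio of SOD2 to SOD1 was 0.535 and 0.525 in control and 0.693 and 0.694 in SNP. Exons of SOD2 share 298 bases with WTAP on the other strand and 845 with another entry named SOD2.

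GPX1, a selenium-containing peroxidase that uses glutathione (chromosome 3, 49357171 to 49358600, minus strand), fell from 30.1 and 31.8 CPM in control to 18.3 and 23.7 CPM in SNP (-0.56, SE 0.17, edgeR adjusted p = 0.0198). The groups did not overlap, yet this was the least stable of the calls, lost under 7 of the 14 alternatives. Among these were DESeq2 (adjusted p = 0.0833) and edgeR fits without control a (-0.60, adjusted p = 0.0535), without control b (-0.52, adjusted p = 0.108), without SNP a (-0.38, adjusted p = 0.134) and with length and GC offsets (-0.32, adjusted p = 0.104). CAT, catalase, had 23.9 and 18.3 CPM in control and 18.9 and 12.2 CPM in SNP, and was called only without SNP a (-0.80, edgeR adjusted p = 0.0108) or with length and GC offsets and a replicate block together (-0.48, edgeR adjusted p = 0.0429). GPX4, which reduces lipid peroxides, had an interval of -0.64 to 0.08, and GPX7, of the endoplasmic reticulum, one of -0.49 to 0.58.

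None of the 4 glutaredoxins, small thiol enzymes that use glutathione, was called by DESeq2 or by edgeR with all 4 libraries. GLRX had no adjusted p in DESeq2. In edgeR 1 of the 4 glutaredoxins had an unadjusted p under 0.05, as had 5548 of all 14759 genes tested. All 4 estimates were above 0, as were 7329 of the 14759. GLRX3, which takes part in iron and sulfur cluster handling, was at 48.7 and 45.3 CPM in control and 61.4 and 54.2 CPM in SNP (0.30, interval 0.029 to 0.57, edgeR adjusted p = 0.0948), and was called without SNP b (0.39, edgeR adjusted p = 0.0323). GLRX5, the mitochondrial form with a like role, had 10.95 and 10.3 CPM in control and 13.0 and 12.5 CPM in SNP. GLRX and GLRX2 were too low for a narrow interval (-0.38 to 1.38 and -0.67 to 0.90), and GLRX2 shares 481 exon bases with TROVE2, which held 10140 counts over the 4 libraries against 108.

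GSTP1, the pi-class glutathione transferase and the most abundant transferase here, fell by about as much as PRDX4: the estimates were -0.98 and -0.97 without offsets, -0.77 and -0.87 with length and GC offsets, and -0.51 and -0.90 with those for guanine minus cytosine as well. It lies on chromosome 11 from 67583595 to 67586656, plus strand. Control a and b had 73.7 and 94.1 CPM and SNP a and b 44.8 and 39.9 CPM. The SNP libraries were close together and well below both control libraries, which differed more. The mean went from 83.9 ± 14.4 to 42.4 ± 3.45 CPM (SD, n = 2 each), a log2 fold change of -0.98 (SE 0.13, edgeR adjusted p = 2.3e-05), and the alternatives gave -1.15 to -0.51.

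The other 5 genes of this role were not called. GSTO1, the omega-class transferase, was at 15.4 and 13.1 CPM in control and 9.32 and 9.98 CPM in SNP (-0.57, interval -1.03 to -0.11, edgeR adjusted p = 0.0638). GSTK1, of mitochondria and peroxisomes, and MGST3, of membranes, also had both SNP values below both control values, with log2 fold changes of -0.30 and -0.17 (edgeR adjusted p = 0.177 and 0.431). NQO1, a quinone reductase and a classic NRF2 target, had 20.2 and 12.6 CPM in control and 16.1 and 14.9 CPM in SNP, and both SNP values lay between the control values. HMOX2, the constitutive heme oxygenase, had an interval of -0.31 to 0.50. The summed level of the 6 genes was 197 ± 10.1 CPM in control and 141 ± 7.44 CPM in SNP. MSRA, which repairs oxidised methionine, had an interval of -0.59 to 0.43.

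PGD, phosphogluconate dehydrogenase, which makes NADPH in the pentose phosphate pathway (chromosome 1, 10398592 to 10420144, plus strand), rose by the smallest amount of the 11 called. It was at 88.4 and 102 CPM in control and 119 and 121 CPM in SNP, with close SNP libraries above both control libraries (0.33, SE 0.11, edgeR adjusted p = 0.0292). The call was lost by DESeq2 (adjusted p = 0.0655), without control a (0.23, edgeR adjusted p = 0.39) and without control b (0.44, edgeR adjusted p = 0.0556). ME1, the cytosolic malic enzyme, another source of NADPH, had 28.5 and 30.2 CPM in control and 37.8 and 34.0 CPM in SNP (interval -0.022 to 0.60, edgeR adjusted p = 0.164). ADH5, which reduces nitrosoglutathione and so removes a carrier of nitric oxide, had 56.9 and 52.7 CPM in control and 75.8 and 53.9 CPM in SNP. SNP b lay within the control values and SNP a above them; the interval was -0.06 to 0.54, and ADH5 was called without SNP b (0.47, edgeR adjusted p = 0.0066).

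Base composition moved with the fold changes across all genes. The excess of guanine over cytosine in a gene's transcripts, in percentage points, had a Spearman rho of 0.48 with the log2 fold change over 14716 genes and of 0.39 over the 40 genes here; the points share the same 4 libraries. The median excess was 4.21 points for the 4 genes that rose, -0.48 for the 7 that fell and 1.64 for those not called, against 1.04 over all genes. PRDX5 had 7.22 points, TXNRD1 4.52 and PGD 3.91, while GSTP1 had -3.79; PRDX4, with 1.97 points, fell although its composition was on the guanine side. What brings about the trend was not tested.

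**Figure D4:**
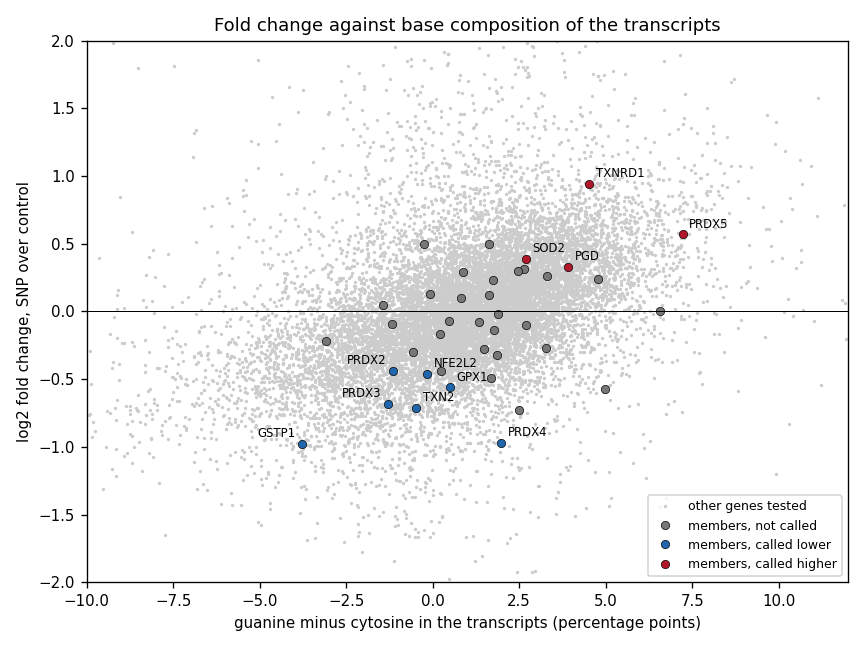
Log2 fold change of SNP over control against guanine minus cytosine in the transcripts, in percentage points, for all genes tested (light grey) and the 40 genes (dark grey not called, blue called lower, red called higher); 186 genes lie outside the axes. The 4 risers sit to the right, from 2.69 points in SOD2 to 7.22 in PRDX5, and GSTP1 at -3.79 lies to the left.

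With a per-library correction for length, GC and guanine minus cytosine (offsets in the edgeR fit), 7 of the 40 genes were called (17.5%), 1 higher and 6 lower, against 18.5% of all genes. Both fits called 5 of them: TXNRD1 (0.61, edgeR adjusted p = 2.2e-04), GSTP1 (-0.51, edgeR adjusted p = 0.0191), PRDX4 (-0.90), PRDX3 (-0.45) and NFE2L2 (-0.36). GSTO1 (-0.79, edgeR adjusted p = 0.0183) and GSS (-0.55, edgeR adjusted p = 0.048) were called with the correction alone. The calls of PRDX5 (0.17, edgeR adjusted p = 0.501), SOD2 (0.24, edgeR adjusted p = 0.115), PGD (0.13, edgeR adjusted p = 0.296), PRDX2 (-0.14, edgeR adjusted p = 0.332), GPX1 (-0.38, edgeR adjusted p = 0.0762) and TXN2 (-0.46, edgeR adjusted p = 0.0831) were lost. TXNRD1 was thus the riser called in both fits. Across the 40 genes rho of guanine minus cytosine with the corrected fold changes was -0.046. The offsets were fitted to guanine minus cytosine in these same libraries, so a small rho follows largely from the correction itself.

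**Figure D5:**
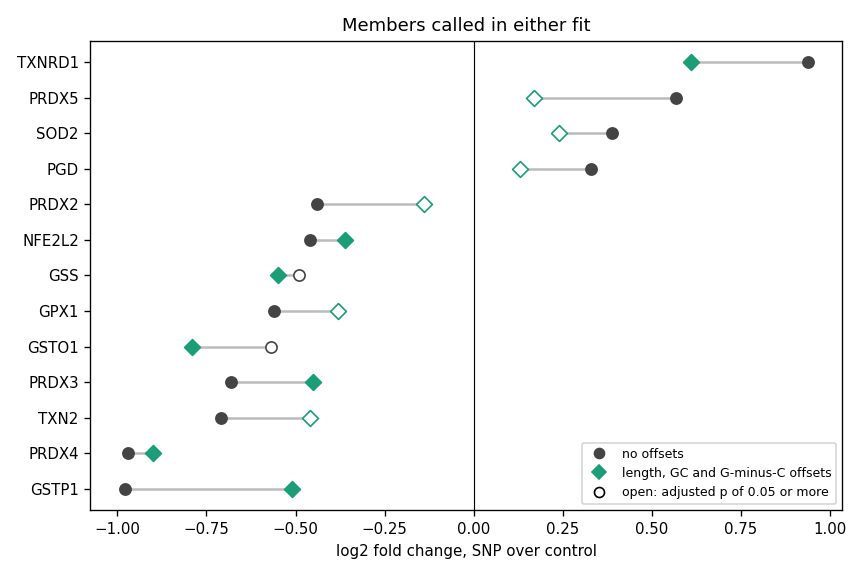
Log2 fold change of the 13 genes called in either fit, without offsets (circles) and with length, GC and guanine-minus-cytosine offsets (diamonds); filled points have an adjusted p under 0.05 and open points do not. TXNRD1 moves from 0.94 to 0.61 and GSTP1 from -0.98 to -0.51, PRDX4 stays near -0.9, and PRDX5 moves from 0.57 to 0.17 and is no longer called.

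Genes of the same pathways outside the 42 were taken from 9 further lists, in which 44 of 141 tested genes were called (20 higher, 24 lower), or 31.2% against 26.2% of all genes. With the correction 27 were called (19.2% against 18.5%), 22 of them in both fits. Shares of all genes to set beside the lists below are 13.6% higher and 12.6% lower. Of the 13 regulators and partners of NRF2, all tested, 6 rose and 1 fell (53.9% called against 26.2% of all genes). With the correction 4 were higher and 1 lower (38.5% against 18.5% of all genes), and 4 of these 5 were called in both fits. GSK3B was called higher with the correction alone (0.28, edgeR adjusted p = 0.0225, against 0.13 without it). MAFG, a small MAF partner of NRF2, went from 79.3 and 70.8 CPM to 115 and 130 CPM (0.70, edgeR adjusted p = 1.2e-04), and MAFK, another, from 4.63 and 3.55 CPM to 7.68 and 7.91 CPM (0.92, edgeR adjusted p = 0.0329; 0.55 and not called with the correction). SQSTM1, which binds KEAP1, went from 77.0 and 90.7 CPM to 123 and 130 CPM (0.60), and BACH2, a repressor of the BACH family, from 125 and 104 CPM to 70.8 and 76.4 CPM (-0.64). The rule that named these 4 genes required groups that did not overlap, so their separation adds nothing further. Over the whole list the groups did not overlap in 9 of 13 genes (69.2% against 64% of all genes). NFE2L1, CUL3 and BACH1 made up the other risers; with the correction NFE2L1 was called (0.32) and CUL3 (0.11, edgeR adjusted p = 0.346) and BACH1 (0.19, edgeR adjusted p = 0.124) were not.

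Among 19 tested further NRF2 targets, 2 rose and 3 fell, 26.3% called against 26.2% of all genes. With the correction 3 were higher and 2 lower (26.3% against 18.5% of all genes), and 2 genes were called in both fits. The ferritin chains FTL (115 and 116 CPM in control, 71.5 and 68.6 in SNP; -0.72) and FTH1 (253 and 268 CPM, then 178 and 182; -0.54) were lower in both SNP libraries, but with the correction their estimates were -0.042 and 0.070 and neither was called. UGDH (0.57) rose, but was not called with the correction (0.24, edgeR adjusted p = 0.169). SLC3A2 was the other riser (0.39, edgeR adjusted p = 0.031) and was called with the correction too (0.43, edgeR adjusted p = 0.0112). ABCC1, an exporter of glutathione conjugates, fell (-0.42) and was called with the correction (-0.24). HMOX1, the inducible heme oxygenase and a much-used NRF2 target, had 4, 1, 10 and 5 counts in control a, control b, SNP a and SNP b and was not tested.

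The NADPH suppliers around PGD included 6 of 18 tested genes that fell and 2 that rose (44.4% called against 26.2% of all genes). PGLS and TALDO1, enzymes of the pentose phosphate pathway like PGD, were among those that fell. RPE, of the same pathway, rose (0.47, edgeR adjusted p = 0.0028), but was not called with the correction (0.11, edgeR adjusted p = 0.366). TKT (-0.20) and RPIA (0.25), also of this pathway, were not called. PGLS went from 22.4 and 22.4 CPM to 11.2 and 14.3 CPM (-0.81, edgeR adjusted p = 0.0038), and TALDO1 from 23.6 and 29.8 CPM to 13.6 and 17.6 CPM (-0.77, edgeR adjusted p = 0.0049). ME3, a mitochondrial malic enzyme, fell by 0.79 on the log2 scale (-0.54 and not called with the correction). With the correction 3 of the 18 were called (16.7% against 18.5% of all genes), all lower, among them TALDO1 (-0.65); PGLS was not (-0.41, edgeR adjusted p = 0.101).

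Of 20 further thioredoxin-fold genes, 4 rose and 3 fell (35.0% called against 26.2% of all genes; 20% against 18.5% with the correction). PDIA6, a disulfide isomerase of the endoplasmic reticulum, went from 130 and 145 CPM to 236 and 198 CPM (0.66; 0.37 and called with the correction). TMX3 rose (0.71), but was not called with the correction (0.28, edgeR adjusted p = 0.0745), while NXN (-0.62) and TXNDC12 (-0.52) fell and were called in both fits. In the 8 further peroxidases and related genes only SESN1, a sestrin, was called (12.5% against 26.2% of all genes, and 12.5% against 18.5% with the correction). SESN1 went from 28.2 and 26.3 CPM to 51.5 and 52.4 CPM (0.93, edgeR adjusted p = 6.0e-05) and was called with the correction too (0.82). Among 20 selenoproteins and selenocysteine factors, 3 rose and 1 fell (20% called against 26.2% of all genes). SECISBP2 (0.40) rose and SELENON (-0.86) fell, and both were called with the correction (0.27 and -0.34). SELENOS (0.72) and SEPHS2 (0.66), which makes the selenium donor, also rose, but were not called with the correction (0.24 and 0.43, edgeR adjusted p = 0.319 and 0.172).

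In 23 tested glutathione transferases and turnover genes, 1 rose and 5 fell, 26.1% called against 26.2% of all genes. The riser was GGT1, which breaks down extracellular glutathione, whose counts were 18 and 7 in control libraries against 73 and 96 after SNP (2.39, SE 0.39, edgeR adjusted p = 5.9e-05; 2.46 with the correction). GGT1 has near-identical relatives in the genome, and how the authors assigned reads shared with them is not given in the sources used here. ESD (-0.58), GSTCD (-0.40) and CLIC4 (-0.33) fell and were called in both fits.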

How the data were processed

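RNA sequencing tables of 4 libraries (2 control, 2 SNP) were used, grouped by title and description. Per the labels, 75 bp reads were sequenced. The build was GRCh38, per the submitters' processing notes; the aligner and counter are not given in the sources used here. The authors deposited whole-number counts per gene, TPM and RPKM for each library. Counts were used for all tests, the deposited TPM for levels and ratios between genes, and the deposited RPKM only to check gene lengths: 88.5% to 88.7% of counted genes, and 34 of the 42, had the exon length of GENCODE 29, from which positions and base composition were taken.

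Low genes were removed with filterByExpr (at least 10 counts, total of at least 15), and groups were compared with edgeR 4.0.16 in R 4.3.3 (TMM, quasi-likelihood test, no covariate, Benjamini-Hochberg adjustment over 14759 genes, threshold 0.05). CPM are TMM-scaled. Standard errors came from the information matrix and the gene's quasi-dispersion. Offsets were lowess fits (span 0.5) per library. The script was tested on simulated data. With 2 libraries a group, an exact permutation test cannot go below p = 0.333. Alternatives were other filters and scalings, DESeq2 1.42.0, limma-voom 3.58.1, a replicate block, offsets, each library left out and a threshold of 0.01.

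The 42 genes and the further lists were chosen with earlier results of these data known. All 42 are accounted for; from each further list up to 4 genes were named by size of change, among those called, with groups that did not overlap and a mean of at least 5 CPM. HMOX1, SLC3A2, NFE2L1, CUL3, BACH1, GSK3B, RPE, TKT and RPIA were named outside this rule, after their values were seen. A gene that the rule named in a further list, and a marker, are not reported here. Exons are shared with another gene in 14 of the 42, and strand use in counting is not given in the sources used here; 33 pseudogenes named after 14 of the genes held 1 count in all, and how reads shared with them were assigned is likewise not stated there.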

Additional observations from a re-analysis of the deposited data

How the results depend on the processing

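Against 11 calls among the 40 genes, DESeq2 made 7 (2 higher) and a threshold of 0.01 left 5 (1 higher, 4 lower). The guanine-minus-cytosine offsets gave 7 (1 higher), of which 5 are among the 11. Shares over all genes are given only for the main fit (27.5% against 26.2%) and for these offsets (17.5% against 18.5%). Counts under the other fits are not set against all genes, so they do not show whether a change is particular to the 40. Leaving out each library in turn gave 6 to 15 calls, 2 to 8 higher and 4 to 9 lower; the lone library of a group is then assumed to vary like the others. Across genes, the deviations of a from b hardly correlated between control and SNP (0.050). This does not settle whether the letters pair the libraries, which the labels do not say. With the replicate block 12 were called (4 higher, 8 lower), SRXN1 (-0.74, edgeR adjusted p = 0.0183) being added. With length and GC offsets 10 were called, and 11 with the block as well, where PRDX2 was lost (-0.27, edgeR adjusted p = 0.0512). The other filters, scalings and limma-voom each gave 11. No called gene changed sign. Small estimates did: with length and GC offsets KEAP1 was at 0.11, GCLM at -0.015 and GLRX2 at -0.08, and with the block added 0.11, -0.012 and -0.08. With the guanine-minus-cytosine offsets TXNIP was at 0.029, PRDX6 at 0.21, SOD1 at -0.40, GLRX2 at -0.016, NQO1 at 0.17 and ADH5 at -0.12. SOD1 was at -0.0037 without a filter, -0.00032 with total counts and -0.0041 with limma-voom. Over the libraries left out, the range was -0.23 to 0.20 for KEAP1, -0.41 to 0.09 for TXNRD2, -0.18 to 0.038 for TXNIP, -0.0082 to 0.29 for GCLM, -0.65 to 0.023 for PRDX1, -0.15 to 0.14 for SOD1, -0.06 to 0.15 for GPX7, -0.14 to 0.33 for GLRX2, -0.38 to 0.29 for NQO1, -0.07 to 0.24 for HMOX2, -0.21 to 0.07 for MSRA and -0.025 to 0.47 for ADH5. The cause was not tested. GLRX and GLRX2, with the widest standard errors of the 40 (0.43 and 0.38), had under 5 CPM in every library.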

Other observations

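Nitric oxide and its products are handled by genes that lie beside the thiol systems. Of 14 tested genes for nitric oxide and nitrosothiol handling, 4 fell and none rose in edgeR, 28.6% called against 26.2% of all genes. With DESeq2 the counts were 1 and 0, and its share over all genes is not given here. In edgeR 6 of the 14 had an unadjusted p under 0.05, as had 5548 of all 14759. GUCY1B1, the heme-bearing subunit of the nitric oxide receptor guanylate cyclase, was at 16.4 and 14.7 CPM in control and 9.95 and 6.35 CPM in SNP (-0.93, edgeR adjusted p = 0.0071; -0.88 with the guanine-minus-cytosine offsets, the call of this list that both fits made). NOS1, the neuronal nitric oxide synthase (-0.69), CYB5R3 (-0.66) and CYGB, cytoglobin (-0.62), fell without the offsets and were not called with them.

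Nitroprusside also carries cyanide. Of 6 tested genes for cyanide and sulfide handling 2 were called, 33.3% against 26.2% of all genes. MPST, a sulfurtransferase that can pass sulfur to cyanide, fell from 40.9 and 40.5 CPM to 22.3 and 29.4 CPM (-0.65, edgeR adjusted p = 0.0043; -0.56 with the offsets, called). CBS, which makes cystathionine on the way to cysteine, went from 93.8 and 110 CPM to 130 and 126 CPM (0.33, edgeR adjusted p = 0.0329; 0.14 and not called with the offsets).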
